A study of Mus musculus with 2 samples.

Results

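The genes described here are the receptors and ligands of the tumour necrosis factor (TNF) superfamily, taken as every protein-coding gene whose symbol starts with Tnfrsf (receptors) or Tnfsf (ligands) and a number. They are 31 of the 55246 loci counted, 20 receptors and 11 ligands. Expression was measured by RNA sequencing in regulatory T cells (Treg cells, which are CD4 T cells defined by the transcription factor Foxp3), isolated from colon lamina propria, the connective tissue beneath the gut epithelium, of female mice. The groups are wild type (WT) and Exon2KO, a Foxp3 allele without exon 2 that the series also calls Foxp3∆2, with 1 library of each. Strain, age, the sorting scheme and whether animals were pooled are not given in the sources used here. No difference below could be set against a spread between samples of a genotype, and every interval covers counting error in these 2 libraries only.

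TNF superfamily ligands are made as trimers, most of them on the cell surface, and cluster their receptors on a neighbouring cell. Most receptors pass the signal to TRAF adaptor proteins and from there to the transcription factor NF-kB, and a smaller group carries a death domain that can start apoptosis. Treg cells, in the gut and elsewhere, are known for high levels of the costimulatory receptors GITR (Tnfrsf18), OX40 (Tnfrsf4), 4-1BB (Tnfrsf9) and the second TNF receptor (Tnfrsf1b), while the matching ligands are typically made by antigen-presenting cells and activated T cells.

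Assigned reads numbered 16281133 for WT and 15412425 for Exon2KO. The T cell genes Cd3e (5154 and 5262 reads in WT and Exon2KO) and Cd4 (4593 and 5367) and the lineage factor Foxp3 (6991 and 20946) were present in both libraries. A count over the whole Foxp3 gene does not check the deletion of 1 exon. The 8 genes of the Treg and CD4 T cell list did not move together: Foxp3 was at least 2-fold higher in Exon2KO, Ikzf2, which encodes the Treg factor Helios, was lower (8476 and 440 reads, a log2 ratio of -4.29), and the other 6 lay within 2-fold, among them Ctla4 (0.71) and Il2ra (-0.35). Reads of other cells were present too. The 12 B and plasma cell markers took 6.12% and 5.61% of all reads in WT and Exon2KO, and the 12 epithelial markers took 0.00826% and 0.0431%, with 8 of the 11 that had enough reads at least 2-fold higher in Exon2KO (9.38% of all genes with enough reads were), among them Car1 (24 and 1830 reads), Car2 (48 and 389), Krt8 (160 and 1604), Krt18 (118 and 277), Krt19 (81 and 1430) and Cldn7 (38 and 353). Of the other 3, Epcam (782 and 609 reads) and Muc2 (41 and 21) had ratios below 0. The 12 myeloid markers summed to 54.0 and 62.7 CPM (read counts relative to the scaled library size), and the 12 stromal and endothelial markers to 80.9 and 78.8 CPM. The 10 markers of CD8, NK and innate lymphoid cells summed to 2878 and 4110 CPM, mostly Gzmb. Of the 9 with enough reads, 2 were at least 2-fold higher (Tcrg-C1, a T cell receptor gamma constant gene, 123 and 1034 reads, and Ncr1, 0 and 10) and 2 lower (Prf1, 87 and 27, and Cd8a, 23 and 6), while the delta chain gene Trdc had 14 and 13. Of all genes with enough reads, 9.38% were at least 2-fold higher and 8.14% lower. In bulk RNA, fewer cells of a type and less RNA per cell cannot be told apart.

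The 3 receptors with the most RNA per length, Tnfrsf4, Tnfrsf9 and Tnfrsf18, are all on chromosome 4, and the sequence in front of their start sites is shown because these are the receptors that carry most of the signal below. RefSeq (GRCm38.p6) places 1 start for Tnfrsf4 and for Tnfrsf18 and 2 for Tnfrsf9. The lines give, within the 250 bases before each start on the plus strand, the longest stretch outside annotated untranslated regions. A further 30 bases are given around each motif match, which is in capitals.
Tnfrsf4, chr4:156013611-156013694: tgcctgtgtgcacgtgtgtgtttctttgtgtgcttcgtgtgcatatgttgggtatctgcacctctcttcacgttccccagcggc
Tnfrsf18, chr4:156026072-156026163: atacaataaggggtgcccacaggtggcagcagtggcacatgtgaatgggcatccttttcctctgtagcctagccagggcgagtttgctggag
Tnfrsf9, first start, chr4:150919905-150920154: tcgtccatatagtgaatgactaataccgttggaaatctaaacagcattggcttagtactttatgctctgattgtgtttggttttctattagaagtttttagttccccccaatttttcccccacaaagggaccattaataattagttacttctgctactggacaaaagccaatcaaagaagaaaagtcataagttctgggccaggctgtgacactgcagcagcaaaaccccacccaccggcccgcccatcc
Tnfrsf9, downstream start, chr4:150927749-150927917: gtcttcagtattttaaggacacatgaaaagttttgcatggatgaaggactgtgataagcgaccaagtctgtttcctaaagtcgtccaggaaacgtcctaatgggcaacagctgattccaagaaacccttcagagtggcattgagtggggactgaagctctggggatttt
Tnfrsf9, downstream start, NF-kB match, chr4:150927946-150927975: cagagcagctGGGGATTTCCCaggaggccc
Tnfrsf9, downstream start, AP-1 match, chr4:150927969-150927998: gaggccctgctcagtTGAGTCAcaggtcct

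Both strands of the full 250 bases were searched for the NF-kB consensus, the AP-1 motif TGANTCA, the forkhead motif TGTTTAC and the RUNX motif TGTGGTT. Of these, Tnfrsf9 matched the NF-kB consensus and TGANTCA, both before its downstream start. The NF-kB match consists of 2 overlapping matches, from 43 to 33 bases before the start, and the AP-1 match lies 15 to 9 bases before it. No match to the 4 motifs was found in these windows for Tnfrsf4 or Tnfrsf18. Over all 32851 promoters of the table, 7.25% hold the NF-kB consensus, 6.75% TGANTCA, 3.17% TGTTTAC and 4.40% TGTGGTT. Of the 31 genes, 24 matched the table, with 28 promoters, of which 3 hold the NF-kB consensus (Tnfrsf8, Tnfrsf9 and Tnfrsf25), 5 TGANTCA, 0 TGTTTAC and 1 TGTGGTT (Tnfrsf13c).

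Of the 31 genes, 27 had at least 10 reads over both libraries, the minimum for a ratio, and these were 18 receptors and 9 ligands. A gene is called here when its scaled levels differ at least 2-fold. By that rule 17.5% of the 17363 genes with enough reads were called, 9.38% higher and 8.14% lower in Exon2KO. Of the 18 receptors, 6 were called lower (Tnfrsf4, Tnfrsf9, Tnfrsf18, Tnfrsf26, Tnfrsf13c and Tnfrsf10b), 0 were called higher and 12 lay within 2-fold. Of the 9 ligands, 2 were called lower (Tnfsf10 and Tnfsf15), 1 higher (Tnfsf18) and 6 lay within 2-fold. The median log2 ratio of Exon2KO over WT was -0.51 for the receptors and 0.13 for the ligands, against 0.0035 for all genes with enough reads. The ligand median is the value of Tnfsf13b, with 7 and 8 reads, and with a minimum of 50 reads it is -0.0033, so it shows no direction. With at least 1000 reads, 3.14% of 4740 genes were called lower, against 3 of the 9 family genes in that range. With at least 10000 reads 4.87% of 472 genes were called lower, against 3 of the 5 family genes.

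**Figure D1:**
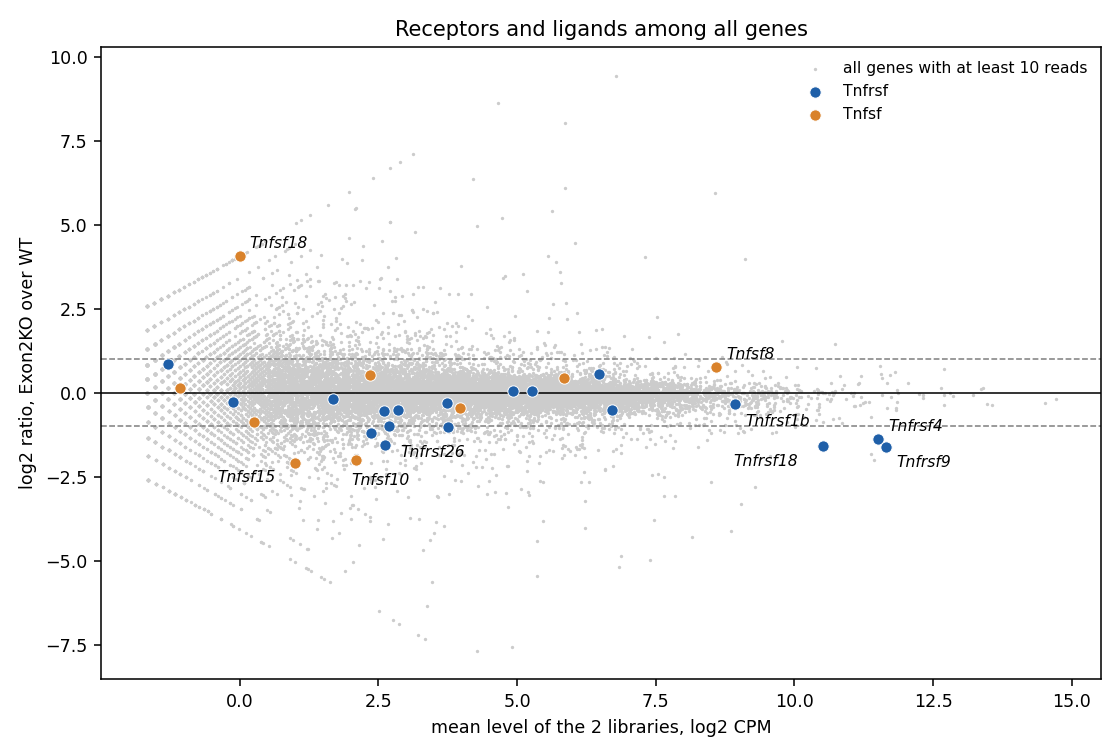
Log2 ratio of Exon2KO over WT against the mean level of the 2 libraries (log2 CPM) for the 17363 genes with at least 10 reads (grey), with receptors in blue and ligands in orange. Dashed lines mark 2-fold. Tnfrsf4, Tnfrsf9 and Tnfrsf18 lie at the right, below the lower line.

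Tnfrsf9 (ENSMUSG00000028965, chromosome 4, 150914562 to 150946102, plus strand, GRCm38) encodes 4-1BB, a receptor induced on activated T cells. It had 76314 reads in WT and 25252 in Exon2KO, or 4862 and 1579 CPM. Its log2 ratio was -1.62 (95% counting interval -1.64 to -1.60), so that the Exon2KO library held 32.5% of the WT level. Tnfrsf4 (ENSMUSG00000029075, chromosome 4, 156013843 to 156016612, plus strand) encodes OX40, a receptor that supports survival of activated T cells. It had 66016 and 25936 reads, a log2 ratio of -1.37 (-1.40 to -1.35). Tnfrsf18 (ENSMUSG00000041954, chromosome 4, 156026164 to 156028895, plus strand) encodes GITR, a costimulatory receptor long used as a Treg marker, and had 34363 and 11626 reads, a log2 ratio of -1.59 (-1.62 to -1.56). All 3 were thus 2.59-fold to 3.08-fold lower in the Exon2KO library.

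Per length, in the authors' FPKM (fragments per kilobase of gene, scaled to library size), Tnfrsf4 was the highest of the family in both libraries, at 3066 in WT and 1194 in Exon2KO. Tnfrsf9 stood at 1778 and 583 and Tnfrsf18 at 1430 and 479. Among protein-coding genes ranked by FPKM, Tnfrsf4 was number 8 in WT and 26 in Exon2KO, Tnfrsf9 number 17 and 79, and Tnfrsf18 number 23 and 93. These genes therefore stayed among the most abundant transcripts of the Exon2KO library while being lower than in WT. Together they held 1.09% of all WT reads and 0.408% of Exon2KO reads. Within the receptors, their share of the reads was 92.7% in WT and 84.1% in Exon2KO. The summed level of the other 17 receptors differed less, at 888 and 741 CPM, a log2 ratio of -0.26 against -1.52 for the 3.

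**Figure D2:**
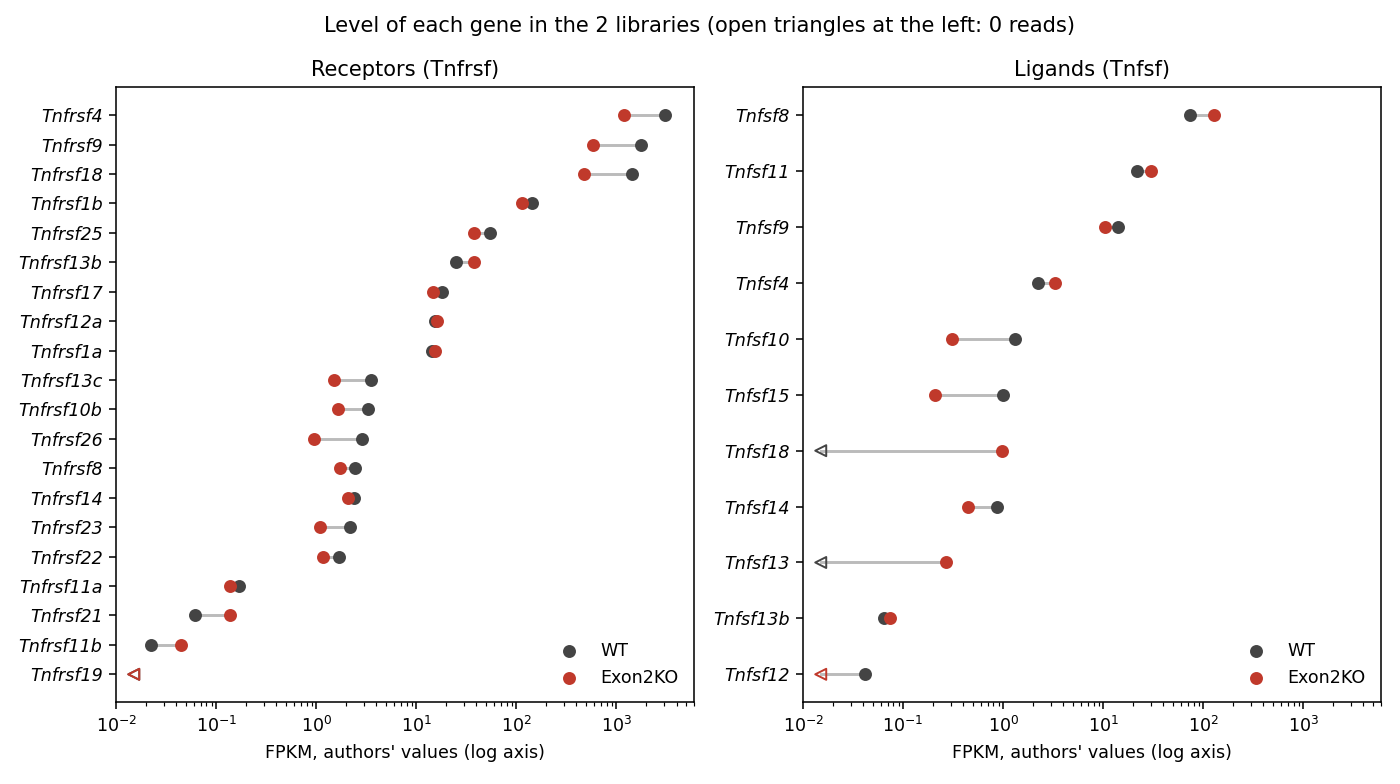
FPKM as deposited by the authors (log axis) of each receptor (left) and ligand (right) in the WT (dark) and Exon2KO (red) libraries, 1 library each, ordered by the higher of both values. Open triangles mark 0 reads. The 3 receptors at the top have the Exon2KO point to the left of the WT point, and the top ligand, Tnfsf8, has it to the right.

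The size of the difference depended on the T cell gene the receptors were set against within each library. Per FPKM of Cd3e, a chain of the T cell receptor complex whose own log2 ratio was 0.0032, the differences were by construction those given above. Per Cd4 FPKM the log2 differences were -1.57 for Tnfrsf4, -1.82 for Tnfrsf9 and -1.79 for Tnfrsf18. Foxp3 itself had a log2 ratio of 1.56, and per Foxp3 FPKM the log2 differences were -2.93, -3.18 and -3.15. Cd3e, Cd4 and Foxp3 all had ratios above 0, so setting the receptors against them could not make the differences smaller. Of the 8 genes of the Treg and CD4 T cell list, 4 had ratios above 0 and 4 below. Those below, Cd3g (-0.16), Cd3d (-0.25), Il2ra (-0.35) and Ikzf2 (-4.29), were not used in this way.

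The other costimulatory receptors were within 2-fold, all with a ratio below 0. Tnfrsf25, the TL1A receptor DR3, had 1941 and 1377 reads (-0.52, -0.62 to -0.42). Tnfrsf8, which encodes CD30, had 134 and 96 reads (-0.50, -0.90 to -0.12). Tnfrsf14, the herpesvirus entry mediator HVEM, had 54 and 48 reads, and its interval includes equal levels (-0.19, -0.79 to 0.39). The 6 costimulatory receptors thus had 3 members called lower, against 8.14% of all genes, and 3 within 2-fold.

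The receptors of TNF itself differed little. Tnfrsf1b, the TNF receptor prominent on Treg cells, had 8583 and 6900 reads, with a log2 ratio of -0.34 (-0.39 to -0.30). At 143 and 114 FPKM it was the fourth highest of the Tnfrsf genes in both libraries. Tnfrsf1a, the widely expressed receptor with a death domain, had 591 and 630 reads (0.07, -0.10 to 0.23). Tnfrsf12a, the receptor of TWEAK, had 470 and 494 reads (0.05, -0.14 to 0.23). The intervals of these last 2 receptors include equal levels and leave out a 1.5-fold difference.

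The 3 receptors of BAFF and APRIL, which sustain B and plasma cells, differed among themselves. Tnfrsf13b (TACI) had the most RNA of the 3 per length, at 25.1 and 37.8 FPKM, with 1124 reads in WT and 1704 in Exon2KO (0.57, 0.46 to 0.68). Tnfrsf17 (BCMA), found on plasma cells, had 232 and 192 reads (-0.30, -0.58 to -0.02), and Tnfrsf13c (the BAFF receptor of mature B cells) had 114 and 49 reads (-1.21, -1.76 to -0.75). Of the 11 B and plasma cell markers with enough reads, 3 were called lower, 1 higher and 7 lay within 2-fold, against 8.14% and 9.38% of all genes called lower and higher. Those called lower include the B cell genes Ms4a1 (47 and 10 reads) and Ighm (4561 and 857), and the plasma cell gene Sdc1 was higher (510 and 1213). Within 2-fold were the B cell receptor genes Cd79a (1244 and 990) and Cd79b (685 and 508), and Jchain (120089 and 113723), among others. Their part in the values of these receptors was not tested.

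The TRAIL receptor Tnfrsf10b, which carries a death domain, had 282 and 142 reads and lay at the threshold, with a log2 ratio of -1.01 (-1.32 to -0.72). With DESeq2 size factors (-0.99) or total counts (-0.90) it is no longer called. Tnfrsf22, Tnfrsf23 and Tnfrsf26 form a cluster of related genes on chromosome 7 (143607659 to 143685872), of which Tnfrsf22 and Tnfrsf23 encode decoy receptors of TRAIL. All 3 had a ratio below 0: Tnfrsf26 had 145 and 49 reads and was called lower (-1.55, -2.09 to -1.12). Tnfrsf23 had 136 and 69 reads (-0.98, -1.45 to -0.58), just inside 2-fold, and Tnfrsf22 had 113 and 78 (-0.55, with an upper limit of -0.13). These genes are close relatives, and an antisense RNA, E230032D23Rik (55 and 53 reads), overlaps all of them, so how the reads divide between them is not certain.

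The remaining receptors were near the detection limit. Tnfrsf11a, which encodes RANK, had 16 and 13 reads, and Tnfrsf21, the death receptor DR6, had 4 and 9. For both the interval included equal levels. Tnfrsf11b, the soluble decoy osteoprotegerin, had 1 and 2 reads, and Tnfrsf19 had 0 in both libraries, which allows up to 0.191 CPM in WT and 0.188 in Exon2KO (3 reads).

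**Figure D3:**
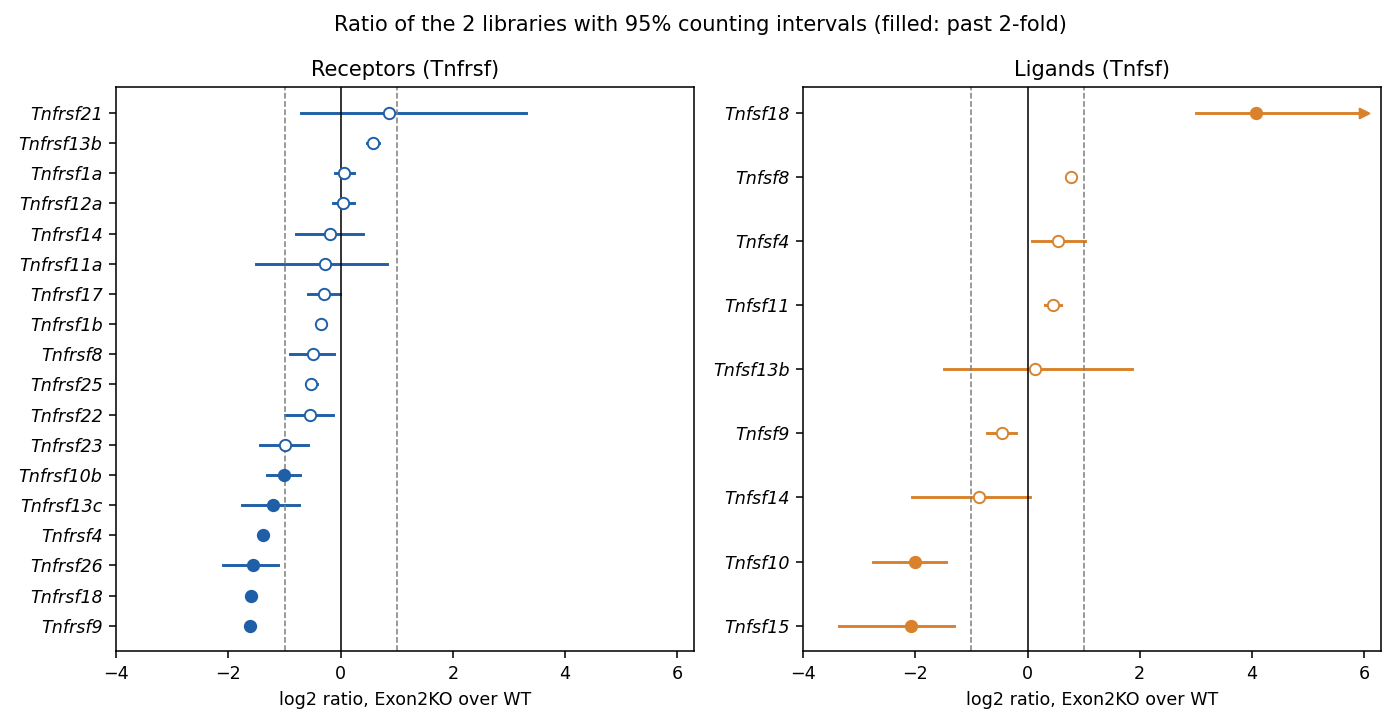
Log2 ratio of Exon2KO over WT with its 95% counting interval for the 18 receptors (left) and 9 ligands (right) with at least 10 reads, sorted by ratio. Filled points are past 2-fold (dashed lines), and an arrow marks an interval without an upper end. Filled points on the receptor side are all below 0, with the shortest intervals for Tnfrsf4, Tnfrsf9 and Tnfrsf18.

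The Tnfsf ligands had much less RNA than the Tnfrsf receptors: together 367 CPM in WT and 580 in Exon2KO, against 12146 and 4670. These sums leave out ligands with other names, given below, of which Ltb alone had 484 and 415 CPM. Most reads of the Tnfsf genes came from Tnfsf8 (ENSMUSG00000028362, chromosome 4, 63831308 to 63861347, minus strand), which encodes the CD30 ligand found on activated T cells. Tnfsf8 had 4457 reads in WT and 7803 in Exon2KO, or 74.2 and 129 FPKM, with a log2 ratio of 0.78 (0.73 to 0.83), a 1.72-fold higher level that did not reach the 2-fold threshold. Its receptor gene, Tnfrsf8, stood at 2.46 and 1.74 FPKM. Tnfsf11, which encodes RANKL, an inducer of osteoclasts and of lymphoid organs, had 763 and 1065 reads (0.45, 0.32 to 0.59). Both ratios were above 0, in the opposite direction to the abundant receptors. Set against Foxp3 FPKM, however, Tnfsf8 was lower in Exon2KO, at 0.668 in WT and 0.390 in Exon2KO.

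Ligands of the 3 abundant receptors were low and went different ways. Tnfsf9, the 4-1BB ligand, had 287 and 212 reads (-0.46, -0.73 to -0.20). Tnfsf4, the OX40 ligand, had 65 and 97 reads (0.54, 0.08 to 1.03). Tnfsf18, the GITR ligand (chromosome 1, 161494655 to 161505290, plus strand), had 0 reads in WT and 32 in Exon2KO, or 10.5-fold higher when 3 reads stand for the WT library. That figure leaves out the counting error of the 32 reads, and the lower 95% counting limit of the log2 ratio, 3.01, is a smaller difference. At 0.974 FPKM in Exon2KO, Tnfsf18 remained a low transcript beside its receptor Tnfrsf18 at 479 FPKM in the same library. GITR ligand is known from endothelial and antigen-presenting cells. The endothelial genes Vwf (5 and 31 reads) and Cdh5 (0 and 15) were called higher too, Pecam1 (917 and 834) and Kdr (12 and 13) were within 2-fold, and their part in the Tnfsf18 value was not tested.

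The 2 ligands called lower had few reads. Tnfsf10, which encodes TRAIL, an inducer of apoptosis, had 108 reads in WT and 26 in Exon2KO, or 6.88 and 1.63 CPM, with a counting interval of -2.76 to -1.45 for the log2 ratio. Tnfsf15, which encodes TL1A, the ligand of Tnfrsf25, had 52 and 11 (-2.08, -3.36 to -1.31). TL1A is typically made by myeloid and endothelial cells, and of the 8 myeloid markers with enough reads 2 were called lower (Cd209a, 20 and 7 reads, and Csf1r, 14 and 6, whose interval includes equal levels) and 0 higher, against 8.14% and 9.38% of all genes. The myeloid genes with the most reads, Lyz2 (317 and 405, 0.32) and Cd68 (168 and 243, 0.50), lay within 2-fold with intervals above 0, and the endothelial genes Vwf and Cdh5 were called higher, as given above. Their part in this value was not tested. Tnfsf14 (LIGHT, a ligand of HVEM) had 25 and 13 reads and Tnfsf13b (BAFF) 7 and 8, and the intervals of both included equal levels. Tnfsf13 (APRIL), with 0 and 7 reads, and Tnfsf12 (TWEAK), with 1 and 0, were under the minimum. Tnfsf13 and Tnfsf12 lie side by side and share the annotated locus Tnfsfm13 and an antisense RNA, so their few reads cannot be assigned with certainty.

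Family members that carry other names were read from a separate list of 15 genes, 11 of them with enough reads, of which 3 were called lower and 1 higher (median -0.08), against 8.14% and 9.38% of all genes. Fas, a death receptor that limits activated T cells, had 2855 and 829 reads, with a log2 ratio of -1.81 (-1.92 to -1.70), and 101 and 28.9 FPKM. Cd40, the receptor by which B and dendritic cells receive T cell help, had 137 and 23 reads (-2.50, -3.31 to -1.96). The B cell markers given above, most of them within 2-fold, stand beside it, and their part was not tested. Cd70, the ligand of CD27, had 29 reads in WT against 0 in Exon2KO and was 9.85-fold lower by the same floor of 3 reads. That figure leaves out the counting error of the 29 reads, and the 95% counting limit of the log2 ratio, -2.91, is a smaller difference. Ltbr, the lymphotoxin beta receptor of stromal and myeloid cells, had 11 and 26 (1.08, 0.15 to 2.38). Cd27, Ltb and Tnf were within 2-fold. Cd27, a costimulatory receptor, had 9444 and 8006 reads (-0.26, -0.31 to -0.22), and Ltb, a lymphotoxin subunit, had 7601 and 6640 (-0.22, -0.27 to -0.17). Tnf had 1252 and 1806 reads (0.50, 0.40 to 0.61), above 0 like Tnfsf8 and Tnfsf11.

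All 37 genes of a list of adaptors, kinases, ligases and NF-kB subunits that act directly behind these receptors had enough reads. The list had 2 genes called lower, 0 higher and a median of -0.16, where 8.14% of all genes and 3.14% of those with at least 1000 reads were called lower. Traf1, an adaptor of 4-1BB and OX40 that is itself an NF-kB target, had 21554 and 10818 reads (-1.02, -1.05 to -0.99). Birc2, which encodes the ubiquitin ligase cIAP1 that TRAF adaptors recruit, had 3450 and 1669 (-1.07, -1.16 to -0.99). Both lie at the threshold, and with total counts in place of TMM factors (-0.92 and -0.97) neither is called. Rel, the c-Rel subunit of NF-kB, was just inside it, with 6439 and 3402 reads (-0.95, -1.01 to -0.89). The NF-kB feedback inhibitors Nfkbia (66554 and 47991 reads, -0.50) and Tnfaip3 (25425 and 18152, -0.51) differed less than Tnfrsf4, Tnfrsf9 and Tnfrsf18. Tab2, an adaptor of the kinase TAK1, was the highest of the list at 0.62 (0.48 to 0.76).

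**Figure D4:**
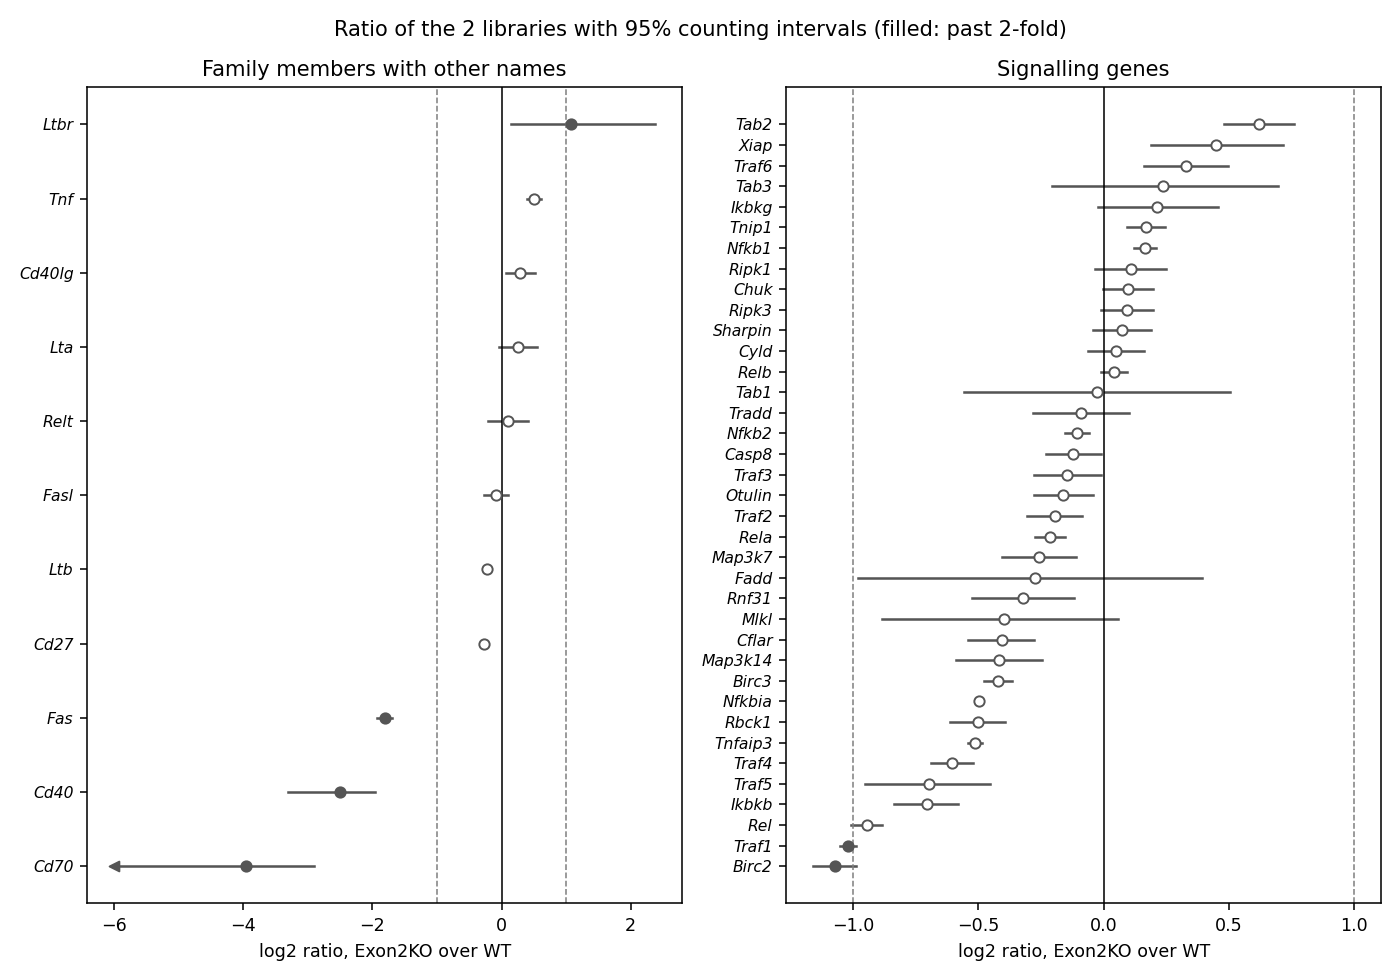
Log2 ratio of Exon2KO over WT with its 95% counting interval for 11 family members named otherwise (left) and 37 signalling genes (right). Filled points are past 2-fold (dashed lines), and the arrow for Cd70 marks an interval without a lower end. Fas, Cd40 and Cd70 lie lowest on the left, and Traf1 and Birc2 on the right.

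Of the 31 genes, 9 are on chromosome 4, among them the 3 abundant receptors, and 4 of these 9 were called lower (Tnfrsf4, Tnfrsf9, Tnfrsf18 and Tnfsf15) and 0 higher. Of all 990 genes with enough reads on that chromosome, 7.07% were called lower. Tnfrsf4 and Tnfrsf18 are adjacent in the same orientation, 9551 bases apart, and Tnfrsf9 lies elsewhere on the chromosome. Within 100 kb of the pair, the 6 other protein-coding genes had log2 ratios from -1.16 to 0.42 and a median of -0.42. One of them, C1qtnf12, was called lower (619 and 282 reads). Sdf4, which ends just before Tnfrsf4, had 19443 and 12601 reads (-0.65, -0.68 to -0.62), while B3galt6 next to it had 124 and 132 (0.06, -0.30 to 0.43). Around Tnfrsf9, the 4 other genes with enough reads were within 2-fold, from -0.27 to 0.32, including Park7 immediately upstream (3783 and 3195 reads) and Camta1, which overlaps Tnfrsf9 on the opposite strand (195 and 249). Gm16008 runs antisense across Tnfrsf18 (407 and 114 reads). Whether reads were counted by strand is not given in the sources used here, so some reads of overlapping genes could belong to either.

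**Figure D5:**
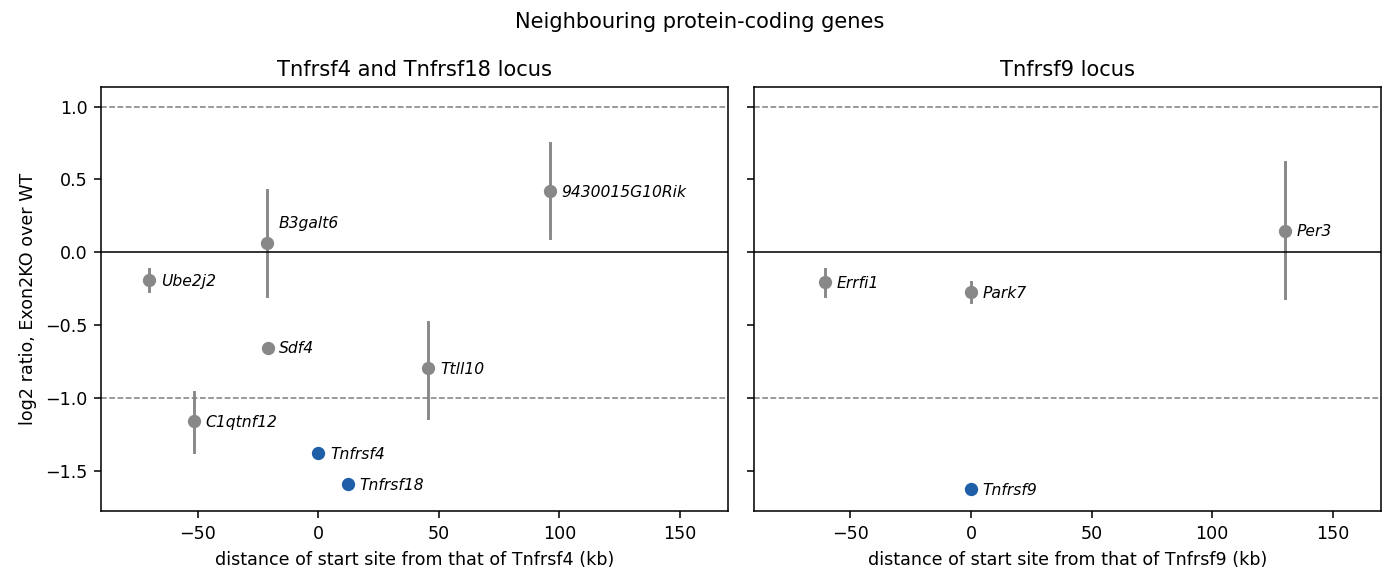
Log2 ratio of Exon2KO over WT with its 95% counting interval for protein-coding genes with at least 10 reads within 100 kb of Tnfrsf4 and Tnfrsf18 (left) and of Tnfrsf9 (right), by the distance of start sites in kb. Receptors are in blue, other genes in grey, and dashed lines mark 2-fold. Camta1, whose start lies far outside the range, is not drawn. The receptors are the lowest points in both panels.

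The authors' deposited table holds their own p-values for the 2 libraries. In the authors' deposited table, 4.58% of 22447 genes have an adjusted p-value below 0.05, and 7 of the 29 family genes with a value do: the receptors Tnfrsf4, Tnfrsf9, Tnfrsf18 and Tnfrsf26, and the ligands Tnfsf10, Tnfsf15 and Tnfsf18. Those p-values rest on an assumed spread, since 1 library per genotype has none to estimate: edgeR's exact test with a biological coefficient of variation (BCV, how much replicate samples would vary relative to their mean) set to 0.2 gave p-values within 1% of the deposited ones for 100% of genes. Applied to the genes with at least 10 reads, that test called the same 7 family genes at 0.2, when it called 6.42% of all genes. With a BCV of 0.4 it called 0.945% of all genes and, of the family, Tnfsf18 alone.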

How the data were processed

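RNA sequencing of 1 WT and 1 Exon2KO library was analysed, with genotypes from the labels. Per the labels' protocols, libraries came from an NEBNext Ultra kit. The submitters' processing notes name HISAT2 2.0.5, StringTie 1.3.3b, featureCounts 1.5.0-p3, DESeq2 1.16.1 and mm10, without roles. Raw counts of reads per gene, as deposited, were used for all ratios. The deposited FPKM values equal FPKM recomputed from counts and deposited gene lengths times 1 constant per library (1.03 for WT, 0.969 for Exon2KO). The deposited scaled count signal was not used. The deposited log2 fold change and p-values are the authors' comparison, and the tool behind them is not given in the sources used here. All 31 genes have identical coordinates in GENCODE M21 (GRCm38).

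Counts were scaled by TMM (edgeR 4.0.16, R 4.3.3; factors 0.964 for WT and 1.04 for Exon2KO). Log2 ratios compare Exon2KO with WT after adding a prior count of 2, and a gene needed 10 reads in the 2 libraries together. The 95% intervals are Clopper-Pearson limits for the Exon2KO part of a gene's reads, expressed as ratios with no prior count. No molecular identifiers mark these reads, so intervals and limits cover counting error only. A call means at least 2-fold. It is no test between genotypes, since edgeR's quasi-likelihood test needs replicates. A count of 0 was set to 3 reads per library for bounds. Calls were repeated with DESeq2 1.42.0 size factors, total counts, upper quartile factors, other read minimums, prior counts and folds, and edgeR's exact test with an assumed BCV. The ratio and interval code was tested on simulated data. Python 3.11.15 with scipy 1.17.1 was used. The genes and lists were chosen with earlier results of these data known. All receptors and ligands are named, and of the lists those past 2-fold with at least 100 reads in 1 library. Other listed genes were chosen after their values were seen, as were all neighbouring genes.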

Additional observations from a re-analysis of the deposited data

How the results depend on the processing

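No receptor or ligand changed sign under the 3 other scalings or the prior counts of 0.5 and 5. Total counts moved the median of all genes from 0.0035 to 0.108 and the receptor median to -0.41, and the abundant family genes by about that shift. Without Tnfrsf10b, 5 receptors were called lower under DESeq2 size factors, total counts and a prior count of 5. A prior count of 0.5 called 1 receptor higher, Tnfrsf21, with 13 reads in all. A minimum of 1 read called 5487 of all genes and 2 ligands higher. A minimum of 50 reads called 1334 and 0 ligands higher, as it removes Tnfsf18, and turned the ligand median to -0.0033. A fold of 1.5 called 5569 genes, 1 receptor higher and 7 lower, and 2 ligands higher and 3 lower. A fold of 4 called 907 genes, 0 receptors lower and 1 ligand lower. Requiring that the counting interval exclude equal levels kept all 9 called family genes. In edgeR's exact test an assumed BCV of 0.2 called 1115 genes, and 0.4 called 164, with 0 receptors lower and 0 ligands lower. No paired analysis was possible because each genotype has 1 library, for which no library can be left out either. Depth limits the 4 genes under 10 reads to their counts.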

Other observations

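The neighbours of the ligand genes were read in the same way. Tnfsf8 and Tnfsf15 lie next to each other on chromosome 4 and went opposite ways, with log2 ratios of 0.78 and -2.08. Tnc, the gene beyond Tnfsf8, which encodes the matrix protein tenascin C, had 41 reads in WT and 96 in Exon2KO (95% counting interval of the log2 ratio 0.66 to 1.77). Tnfsf4 and Tnfsf18 are neighbours on chromosome 1 and were both above 0. Next to the Tnfrsf22, Tnfrsf23 and Tnfrsf26 cluster, Cars (2169 and 1639 reads, -0.43) and Nap1l4 (2637 and 1932, -0.48) were within 2-fold, as were all 4 neighbours with enough reads there, whose median was -0.45. The antisense RNA Tnfsf13os, which overlaps Tnfsf12 and Tnfsf13, had 8 and 27 reads.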
